A study of Arabidopsis thaliana with 15 samples.

Results

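The 34 genes described here encode enzymes of carbon fixation and of photorespiration in the leaf of Arabidopsis thaliana, with the regulatory CP12 proteins and the transporter PLGG1. They were taken by gene identifier from the 21593 genes listed in the series, 20 for the Calvin cycle and 14 for photorespiration. Leaf RNA of Col-0 wild type plants was sequenced under 5 conditions with 3 biological replicates each, and leaf number 7 of the rosette was sampled per the study's methods. All plants were grown for 6 to 7 weeks in days of 8 h light, and the growth light (GL) of 100 μmol photons m-2 s-1 served as control. High light (HL) of 1000 μmol photons m-2 s-1 lasted 15 min in HL15 and 60 min in HL60. Recovery (R) plants had 60 min of HL and then spent a further 15 min (R15) or 60 min (R60) in GL. A GL group matched to the clock time of each treatment was not analysed here, so that light treatment and time of day cannot be told apart in any comparison with GL. In whole leaves, fewer cells of a type and less RNA per cell cannot be told apart either.

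The Calvin cycle fixes CO2 in the chloroplast stroma. Rubisco joins CO2 to ribulose bisphosphate, phosphoglycerate kinase and a plastid glyceraldehyde phosphate dehydrogenase (GAPDH) reduce the product to triose phosphate, and the remaining enzymes rebuild the acceptor. Rubisco also reacts with O2, and photorespiration recovers the resulting phosphoglycolate through the chloroplast, the peroxisome and the mitochondrion before glycerate returns to the cycle.

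Normalized counts summed to 16003876 to 20619828 in a library, with the lowest 3 totals in R60, and the reads per library were estimated at 14403632 to 28104464. All 34 genes passed the filter on low values, and 33 of them had a mean above 1000 normalized counts in every condition. HL15 replicates 2 and 3 were much closer to each other than other replicate pairs (chi-square per degree of freedom 1.57, against 4.14 to 92.2). Whether these HL15 libraries share material was not tested, and with both averaged as 1 library 0 genes were called at HL15. HL60 replicate 1 differed most from its group (74.5 and 92.2). Of the 3 R60 libraries, replicate 1 had the highest value for 33 of the 34 genes. Defining markers of leaf mesophyll, genes for antenna proteins, were listed for 4 of 4 genes at a summed level of 813644 to 830335 in GL, and 0 of 3 root markers were listed. The 34 genes together took 10.7 to 10.9% of all normalized counts in the GL libraries and 7.30 to 8.83% in R60.

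Most genes of both pathways stayed near their GL level during HL and were lowest after 60 min of recovery. Against GL, 22 of the 34 genes (64.7%) were lower and 1 was higher at R60, whereas 22.1% of all 20512 genes tested were lower and 21.4% higher. Calls rest on limma, with p adjusted by Benjamini-Hochberg over all genes tested and a threshold of 0.05, and fold changes are on the scale of log2(normalized count + 1). The fall was 2-fold or more for 8 of the genes, against 8.53% of all genes. For 20 of the 34 genes (58.8%) each R60 library lay below every library of the other conditions, which held for 8.80% of all genes. The lowest mean of the 5 conditions was at R60 for 28 genes, a count not made over all genes. The estimate against GL at R60 was negative for 32 genes, where the median of all genes was -0.02. Negative estimates numbered 28 under scaling to equal totals, 25 under quantile and 32 under upper quartile normalization. Calls at R60 were 18 lower and 2 higher under equal totals, against 2893 and 6200 of the 20512 genes tested. This scaling moved the median of all genes from -0.02 to 0.18. Under quantile normalization the R60 calls were 19 lower and 3 higher, against 5070 and 4174 of all genes tested. Without R60 replicate 1, 26 genes were lower and 0 higher. A test for any change among the 5 conditions called 27 of the 34 genes, near the 73.8% of all genes it called.

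**Figure D1:**
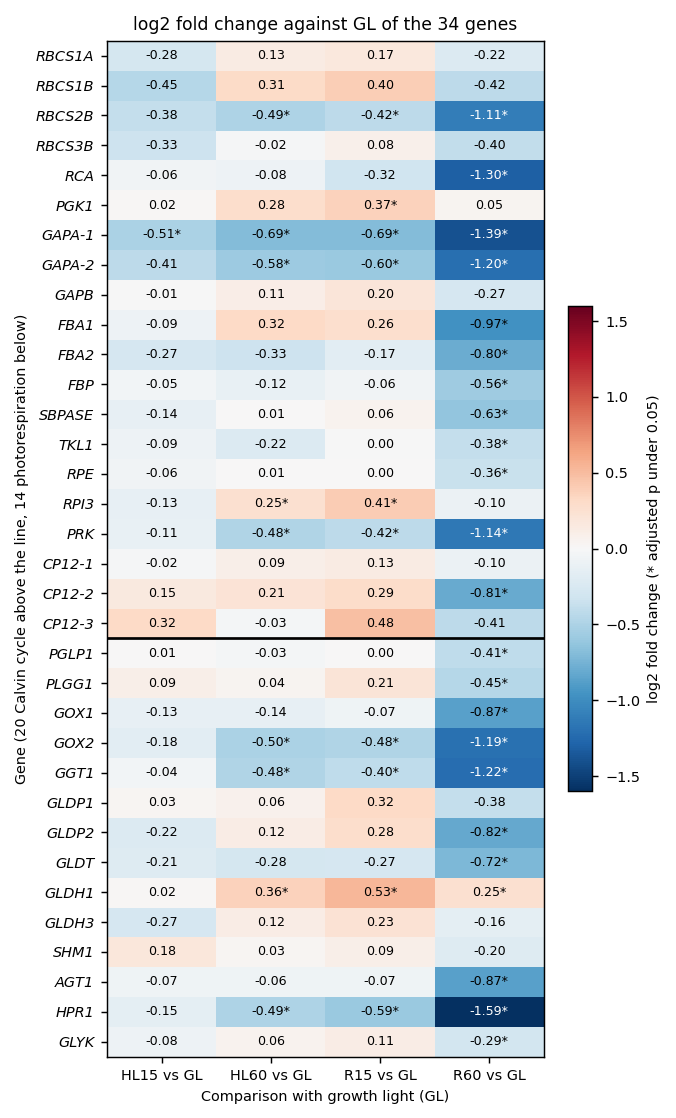
Log2 fold change against GL of each of the 34 genes (rows) at HL15, HL60, R15 and R60 (columns), with the Calvin cycle above the line and photorespiration below it. The color scale is in log2 units, and an asterisk marks a limma adjusted p under 0.05. The R60 column holds 22 of the lowered calls and the lowest value of the plot, -1.59 for HPR1.

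Before R60 the genes moved little, mostly downward at HL15 and in both directions at HL60 and R15. At HL15, 26 of the 34 estimates were negative, where the median of all genes was -0.03. At HL15, 0 genes were higher and 1 was lower (11.4 and 13.2% of all genes). An unadjusted limma p under 0.05 was seen for 5 of the 34. The shares of all genes at that looser threshold were not counted and cannot be below those given. The lowered gene was GAPA-1, and the count of calls was 0 without HL15 replicate 2 or without HL15 replicate 3, 4 without HL15 replicate 1 or without R60 replicate 1, and 3 without HL60 replicate 1. At HL60, 2 genes were higher and 7 lower, against 19.4% of all genes in each direction, so that the lower calls were near that background. The higher genes were RPI3 and GLDH1, and the lower genes were RBCS2B, GAPA-1, GAPA-2, PRK, GOX2, GGT1 and HPR1. At R15, 3 genes were higher (PGK1, RPI3 and GLDH1) and 7 lower (RBCS2B, GAPA-1, GAPA-2, PRK, GOX2, GGT1 and HPR1), against 22.9% of all genes in each direction. The R15 calls turned to 11 higher and 5 lower under quantile normalization, against 3976 and 5374 of the 20512 genes tested. Calls at R15 fell to 6 without GL replicate 3 and to 6 without R15 replicate 3. None of these early changes reached 2-fold. The 4 comparisons share the GL libraries.

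The pathways as wholes moved side by side. The median log2 fold change against GL of the 20 Calvin cycle genes was -0.10 for HL15, -0.01 for HL60, 0.07 for R15 and -0.49 for R60. For the 14 photorespiratory genes the medians were -0.08, 0.00, 0.05 and -0.59 in the same order, and those of all genes tested were -0.03, 0.00, 0.01 and -0.02. The Calvin cycle median minus the photorespiratory median was thus -0.02, -0.01, 0.02 and 0.10. In single libraries this difference ranged from -0.05 to 0.06 (HL15), -0.13 to 0.11 (HL60), -0.03 to 0.07 (R15) and 0.01 to 0.06 (R60), so that its sign differed among libraries of a condition except at R60. The HL60 difference was 0.15 without HL60 replicate 1, and the R60 difference was 0.02 without R60 replicate 3.

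**Figure D2:**
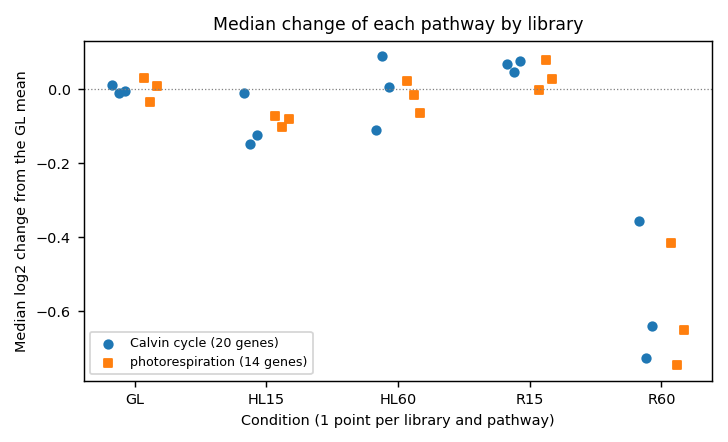
Median log2 change from the GL mean over the 20 Calvin cycle genes (circles) and the 14 photorespiratory genes (squares), 1 point per library and pathway, for the 5 conditions on the x axis. R60 libraries lie at -0.36, -0.73 and -0.64 for the Calvin cycle and at -0.42, -0.75 and -0.65 for photorespiration, below all other libraries.

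In summed normalized counts, the Calvin cycle genes fell to 62.6% of GL at R60 and the photorespiratory genes to 63.7%. The Calvin cycle sum was 1591320 to 1624200 in the GL libraries and 884392 to 1189550 in R60, and the photorespiratory sum was 454976 to 477374 in GL and 262154 to 346687 in R60. Neither sum overlapped between these conditions. The Calvin cycle sum was also 86.5% of GL at HL15, where that of photorespiration was 97.7%. The summed antenna markers were at 445951 to 573392 in HL60 and 389407 to 447442 in R60, where 4 of 4 were called lower than GL (22.1% of all genes). From R15 to R60, 1 antenna marker was called higher (LHCB2.2, 19357 to 22374 in R15 and 34956 to 40301 in R60) and 3 were not called. Guard cell markers (4 of 4 listed) summed to 754 to 922 in GL and 776 to 903 in R60, and phloem markers (3 of 3 listed) to 3254 to 3956 and 3150 to 3347. These sums were not constant in between. Guard cell markers summed to 486 to 603 in HL15 and 994 to 1147 in R15, and phloem markers to 2117 to 2533 in HL60 and 2199 to 2645 in R15. Any part of cell composition in the lower sums was not tested.

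Rubisco small subunits are encoded by RBCS1A (AT1G67090, chr1:25048158-25049667, minus strand) and by the neighboring genes RBCS1B (AT5G38430, chr5:15383167-15385320, minus strand), RBCS2B (AT5G38420, chr5:15380907-15382071, minus strand) and RBCS3B (AT5G38410, chr5:15376988-15378642, minus strand), and of these only RBCS2B passed the test against GL. Per kilobase of the longest RefSeq transcript, the GL levels were 220450 normalized counts for RBCS1A, 150200 for RBCS3B, 128320 for RBCS2B and 36480 for RBCS1B. The 250 bases before the annotated gene start of RBCS2B (chr5:15382072-15382321, minus strand) and RBCS1A (chr1:25049668-25049917, minus strand), from the RefSeq TAIR10.1 genome, are shown because RBCS2B passed the test and RBCS1A did not. They are written 5′ to 3′ with matches to the G-box CACGTG and the I-box core GATAAG, on either strand, in capitals.
RBCS2B: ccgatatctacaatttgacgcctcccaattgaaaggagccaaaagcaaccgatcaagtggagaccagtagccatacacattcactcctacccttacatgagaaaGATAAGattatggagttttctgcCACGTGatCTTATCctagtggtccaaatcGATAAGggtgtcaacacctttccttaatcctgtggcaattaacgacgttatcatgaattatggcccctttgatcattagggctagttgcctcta
RBCS1A: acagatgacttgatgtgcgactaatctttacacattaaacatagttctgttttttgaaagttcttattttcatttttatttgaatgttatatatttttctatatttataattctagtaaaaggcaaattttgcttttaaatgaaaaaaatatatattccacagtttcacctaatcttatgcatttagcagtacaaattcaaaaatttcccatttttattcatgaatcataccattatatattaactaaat
The RBCS2B window held 1 G-box, 123 bases before the start, and 3 I-box cores, at 146, 115 and 94 bases, and the RBCS1A window held neither. Each window depends on the annotated gene start, and sequence outside it was not searched. The absence of a motif thus applies to the window only. Among all 34 genes a G-box was in the window of 5 (14.7%, against 6.49% of 27443 genes) and an I-box core in that of 6 (17.6%, against 12.3%). The evening element AAAATATCT was in 0 of the 34 windows and in 2.36% of all windows. A match describes the letters only, and the motifs do not overlap one another in these windows.

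RBCS2B was at 122562, 113794 and 123570 normalized counts in GL, 97204, 89194 and 90454 in HL15, 86505, 93603 and 76410 in HL60, 84650, 95438 and 88549 in R15, and 65824, 48086 and 54333 in R60. All treated libraries were below all GL libraries, and those of R60 were the lowest. The HL60 log2 fold change was -0.49 ± 0.16 (SE, limma adjusted p = 0.0247), that of R15 -0.42 ± 0.16 (limma adjusted p = 0.0428) and that of R60 -1.11 ± 0.16 (limma adjusted p = 5.99e-05). The R60 call was kept without any 1 library. The HL60 call was lost without GL replicate 1 (-0.48), GL replicate 3 (-0.47) or HL60 replicate 3 (-0.41). The R15 call was lost without any 1 GL library (-0.46 to -0.40), any 1 R15 library (-0.47 to -0.38), HL15 replicate 2 or 3, or R60 replicate 3 (-0.42 each), with no filter on low values or with HL15 replicates 2 and 3 averaged, and its estimate was 0.11 under quantile normalization. The HL15 estimate of -0.38 was not called (limma adjusted p = 0.101), and was called without R60 replicate 1.

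RBCS1A, the most abundant of the 34 genes per kilobase in GL, was at 286026, 276228 and 276355 in GL, 268415, 210540 and 214357 in HL15, 255341, 348434 and 319012 in HL60, 327016, 293159 and 325779 in R15, and 281772, 240779 and 202681 in R60. Its R60 and GL libraries overlapped, and the R60 estimate was -0.22 with a 95% interval of -0.72 to 0.28 (limma adjusted p = 0.474). RBCS1B was at 66014, 72437 and 68826 in GL, 61500, 45698 and 45864 in HL15, 77422, 94188 and 86024 in HL60, 89839, 86491 and 97265 in R15, and 61228, 50785 and 44345 in R60. It was thus below GL in HL15 and R60 and above GL in HL60 and R15, without passing the test against GL (limma adjusted p = 0.0648, 0.164, 0.0657 and 0.0575 for HL15, HL60, R15 and R60). Leaving out HL15 replicate 1, HL60 replicate 1 or R60 replicate 1 ended this for HL15 (-0.59, -0.45 and -0.45), R15 (0.40 each) and R60 (-0.42, -0.42 and -0.54), where RBCS1B was then called. Its rise from HL15 to HL60 did pass, at 0.76 ± 0.17 (limma adjusted p = 0.00294). RBCS3B was at 187779, 182013 and 175441 in GL, 160207, 137226 and 137618 in HL15, 144403, 213776 and 185198 in HL60, 194196, 185180 and 195979 in R15, and 164812, 135512 and 117992 in R60. Its R60 libraries were all below GL, at -0.40 with an interval of -0.84 to 0.05 (limma adjusted p = 0.139). It was called only without R60 replicate 1 (-0.52). Under quantile normalization the R60 estimates of RBCS1A, RBCS1B and RBCS3B were 0.32, 0.06 and 0.35. They were not called and had the other sign from the main fit. The 4 genes share sequence, so that reads may be split among them in part. The share of stretches of 31 bases in the transcripts found in other genes was 37.1% for RBCS2B, 20.7% for RBCS3B, 18.9% for RBCS1B and 4.5% for RBCS1A.

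**Figure D3:**
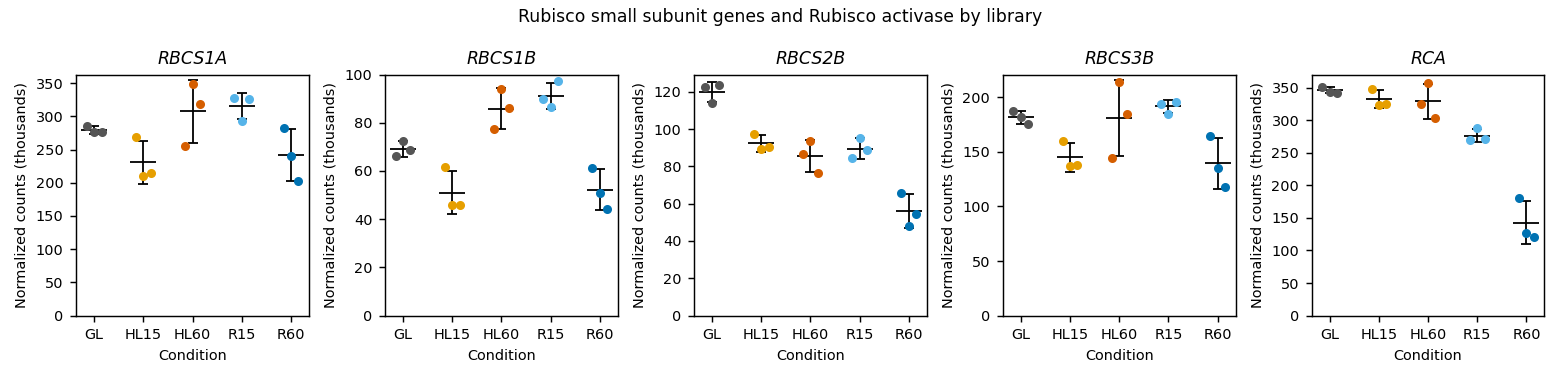
Normalized counts (linear axis from 0) of the 4 Rubisco small subunit genes and of RCA in each library, by condition. Points are libraries, and bars are the mean ± SD of 3. RBCS2B and RCA have their lowest libraries in R60, whereas RBCS1A at R60 overlaps GL.

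RBCS2B held a smaller share of the small subunit transcripts in each HL60, R15 and R60 library than in GL, and no ratio test among these genes passed after adjustment. RBCS2B made up 18.5% ± 0.76 (SD, n = 3) of the summed RBCS counts in GL, 13.1% ± 2.0 in HL60, 13.1% ± 1.2 in R15 and 11.5% ± 1.4 in R60. RBCS1A stood over the same conditions at 43.0% ± 0.17, 46.5% ± 1.3, 45.8% ± 1.3 and 49.4% ± 1.2. Neither share overlapped between GL and R60. RBCS1B held 10.6% and RBCS3B 27.9% in GL, and they stood at 10.7 and 28.5% at R60. The log2 ratio of RBCS2B to RBCS1A, a pair chosen after its values were seen, fell by 0.89 at R60, with an exact permutation p of 0.1, the smallest that 3 against 3 libraries can give. It was 1 of 40 such ratio tests, and its adjusted p over them was 0.133.

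RCA (AT2G39730, chr2:16570746-16573692, minus strand) encodes Rubisco activase, which frees Rubisco from bound sugar phosphates. Its 250-base window (chr2:16573693-16573942, minus strand), shown because RCA had the second largest fall of the Calvin cycle genes at R60, held 1 I-box core, 133 bases before the start, in capitals.
RCA: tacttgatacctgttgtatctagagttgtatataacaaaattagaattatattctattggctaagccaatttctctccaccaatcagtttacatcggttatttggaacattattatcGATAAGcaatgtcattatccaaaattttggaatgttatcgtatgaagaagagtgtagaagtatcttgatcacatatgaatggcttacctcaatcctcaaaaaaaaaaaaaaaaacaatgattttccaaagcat
RCA was at 351594, 344110 and 342672 in GL, 348770, 323070 and 325456 in HL15, 325353, 357952 and 303811 in HL60, 269949, 288045 and 271424 in R15, and 180589, 126407 and 121413 in R60. HL15 and HL60 overlapped GL, R15 lay below it, and R60 was lowest by a wide margin. The R60 change was -1.30 ± 0.23 (limma adjusted p = 0.000292), to 41.3% of the GL mean. The R15 estimate of -0.32 did not pass (limma adjusted p = 0.26), and the step from R15 to R60 was -0.98 ± 0.23 (limma adjusted p = 0.00318).

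In the reduction phase, the genes for the A subunit of plastid GAPDH fell and the gene for its B subunit did not pass the test. GAPA-1 (AT3G26650, chr3:9794862-9797045, plus strand) was at 70787, 69727 and 70142 in GL, 55138, 46827 and 46895 in HL15, 42860, 45829 and 41559 in HL60, 46345, 42535 and 41803 in R15, and 30590, 24138 and 26102 in R60. Each treated library was below each GL library. GAPA-1 was lower in all 4 comparisons with GL, at -0.51 ± 0.13, -0.69 ± 0.13, -0.69 ± 0.13 and -1.39 ± 0.13 for HL15, HL60, R15 and R60 (limma adjusted p = 0.0111, 0.000661, 0.000528 and 1.03e-06). The HL15 call alone depended on single libraries and was lost without HL15 replicate 2 or 3 (-0.47 each).

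GAPA-2 (AT1G12900) followed the same course, with a mean ± SD (n = 3) of 70355 ± 406 in GL, 53122 ± 6919 in HL15, 47058 ± 4567 in HL60, 46549 ± 2389 in R15 and 30864 ± 4994 in R60. It was called at HL60 (-0.58), R15 (-0.60) and R60 (-1.20 ± 0.15, limma adjusted p = 1.4e-05), and at HL15 it just missed the threshold (-0.41, limma adjusted p = 0.0549), which it passed without HL15 replicate 1 (-0.52), HL60 replicate 1 or R60 replicate 1 (-0.41 each). GAPB (AT1G42970) was at 63209 ± 720 in GL, 62729 ± 2811 in HL15, 68079 ± 2831 in HL60, 72420 ± 2192 in R15 and 52775 ± 7694 in R60. Its R60 estimate was -0.27 with an interval of -0.56 to 0.02 (limma adjusted p = 0.127), and it was called only without R60 replicate 1 (-0.39). The log2 ratio of GAPA-1 plus GAPA-2 to GAPB, chosen after its values were seen, was 1.15 in GL and stood at 0.71 (HL15), 0.41 (HL60), 0.31 (R15) and 0.13 (R60) in the treatments. No treated library overlapped GL in this ratio (exact permutation p = 0.1 each, the smallest possible, adjusted p = 0.133 over 40 ratio tests). PGK1 (AT3G12780), a plastid phosphoglycerate kinase, averaged 31752 ± 765 in GL, 40914 ± 248 in R15 and 33042 ± 4858 in R60. Its R15 rise of 0.37 ± 0.13 (limma adjusted p = 0.0274) was lost without any 1 GL or R15 library (0.36 to 0.39).

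**Figure D4:**
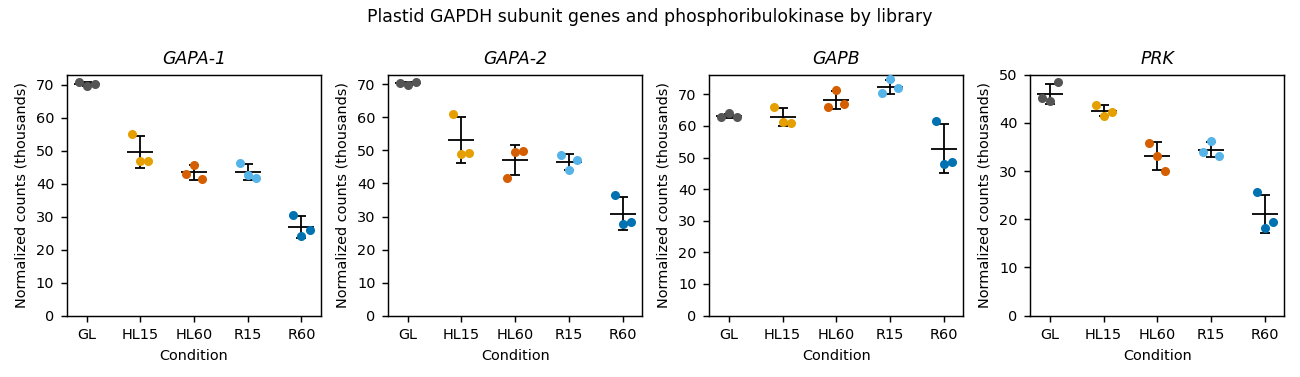
Normalized counts (linear axis from 0) of the plastid GAPDH subunit genes GAPA-1, GAPA-2 and GAPB and of PRK in each library, by condition, with bars for the mean ± SD of 3 libraries. The GAPA genes and PRK step down to R60, whereas GAPB is highest at R15 (72420) and lowest at R60 (52775).

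Of the 8 enzymes that rebuild the acceptor, 7 were lower than GL at R60 (median of the 8 -0.60), against 22.1% of all genes. PRK (AT1G32060), the phosphoribulokinase that makes ribulose bisphosphate, fell most, from 46024 ± 2140 in GL to 42491 ± 1147 in HL15, 33044 ± 2888 in HL60, 34466 ± 1641 in R15 and 21079 ± 4009 in R60. Its R60 change was -1.14 ± 0.14 (limma adjusted p = 9.94e-06), after -0.48 at HL60 and -0.42 at R15. The R15 call of PRK was lost without GL replicate 3 (-0.38), R15 replicate 1 (-0.41) or R15 replicate 3 (-0.39). Fructose bisphosphate aldolase is encoded by FBA1 (AT2G21330) and FBA2 (AT4G38970). FBA1 was at 69106 ± 660 in GL, 86973 ± 13494 at HL60 and 35845 ± 7683 at R60, and FBA2 was at 110965 ± 1130, 88909 ± 10595 and 64301 ± 9177. Both were lower at R60, by -0.97 for FBA1 and -0.80 for FBA2 (limma adjusted p = 0.000336 and 0.000821), and neither passed at HL60 (0.32 and -0.33). Under quantile normalization the R60 estimate was -0.42 for FBA1, still called, and -0.03 for FBA2, not called. The log2 ratio of FBA1 to FBA2 was higher by 0.65 at HL60 and 0.43 at R15 and lower by 0.17 at R60, with no overlap with GL (exact permutation p = 0.1 each, the smallest possible).

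The bisphosphatases, which make the steps from sugar bisphosphates irreversible, passed the test against GL at R60 only. FBP (AT3G54050) went from 20551 ± 553 in GL to 13972 ± 1743 (-0.56, limma adjusted p = 0.000427), and SBPASE (AT3G55800) from 38709 ± 798 to 25248 ± 3866 (-0.63, limma adjusted p = 0.00103). Under quantile normalization the R60 estimate was -0.40 for FBP, still called, and -0.22 for SBPASE, not called. The transketolase TKL1 (AT3G60750, -0.38, limma adjusted p = 0.019) and the epimerase RPE (AT5G61410, -0.36, limma adjusted p = 0.0113) fell less. Their R60 calls depended on single libraries, as TKL1 was lost without GL replicate 1 (-0.38), GL replicate 3 (-0.37), R60 replicate 2 (-0.35) or R60 replicate 3 (-0.32) and RPE without GL replicate 1 (-0.32), and the TKL1 estimate changed sign under quantile normalization. Under equal totals neither was called at R60 (-0.17 for TKL1 and -0.15 for RPE). RPI3 (AT3G04790, chr3:1313297-1314288, plus strand), a ribose phosphate isomerase, was the regeneration gene not lowered at R60. It was at 5857, 6089 and 5609 in GL, 6111, 4993 and 4976 in HL15, 6416, 7388 and 7114 in HL60, 7865, 7438 and 8014 in R15, and 5722, 5471 and 5232 in R60. HL60 and R15 libraries were above all GL libraries, and R60 overlapped GL. The R15 rise was 0.41 ± 0.09 (limma adjusted p = 0.00255). The HL60 rise of 0.25 ± 0.09 (limma adjusted p = 0.0481) was lost with upper quartile normalization, no variance trend, no filter on low values, only the conditions compared or HL15 replicates 2 and 3 averaged. It held only without HL15 replicate 1, HL60 replicate 1 or R60 replicate 1 among the 15 left-out libraries, at 0.21 to 0.28 in the others, and was -0.03 under quantile normalization.

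CP12 proteins bind GAPDH and PRK in the dark and hold them inactive. CP12-2 (AT3G62410, chr3:23090944-23091580, plus strand) was at 7894, 7532 and 7611 in GL, 8057, 8844 and 8748 in HL15, 9317, 9513 and 7961 in HL60, 8798, 10025 and 9422 in R15, and 6025, 3263 and 4261 in R60. It was above GL in every library of the earlier conditions, without passing the test (it was called at R15, at 0.29, without R60 replicate 1), and below GL in R60 (-0.81 ± 0.16, limma adjusted p = 0.000925). CP12-1 (AT2G47400, chr2:19446730-19447642, plus strand) was at 9779, 9845 and 9130 in GL, 9663, 9315 and 9445 in HL15, 8046, 12509 and 10494 in HL60, 10603, 10517 and 10310 in R15, and 9896, 8635 and 8389 in R60. It overlapped GL at R60 (-0.10, interval -0.37 to 0.18, limma adjusted p = 0.573). CP12-3 (AT1G76560, chr1:28728206-28728976, plus strand) was listed at low values, 37.7, 45.9 and 46.2 in GL, 38.0, 56.3 and 73.5 in HL15, 31.7, 46.0 and 51.7 in HL60, 52.1, 75.4 and 55.9 in R15, and 22.3, 24.0 and 61.1 in R60. R60 replicate 3 stood above all GL libraries and the other R60 libraries below them, and the R60 estimate was -0.41 (limma adjusted p = 0.367), or -0.87 and called without R60 replicate 3. The log2 ratio of CP12-1 to CP12-2 was higher by 0.71 at R60 (exact permutation p = 0.1, the smallest possible).

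In photorespiration, the 5 genes for peroxisomal enzymes fell most, and the 6 genes for mitochondrial glycine oxidation fell less or rose. At R60, 5 of 5 peroxisomal genes were lower, 3 of them by 2-fold or more (median -1.19), whereas of the glycine decarboxylase and SHM1 (AT4G37930) genes 2 were lower and 1 higher (median -0.29). Of all genes, 22.1% were lower, 8.53% lower by 2-fold or more and 21.4% higher, so that the 1 higher of 6 was near the background. The difference between these gene groups was not tested. In the R60 libraries the median change of the peroxisomal genes was -0.92, -1.29 and -1.27, and that of the glycine decarboxylase and SHM1 genes was -0.06, -0.49 and -0.33. The promoter windows of HPR1 (chr1:25492943-25493192, plus strand) and GGT1 (chr1:8272022-8272271, minus strand), which fell most, and of GLDH1 (chr2:14890791-14891040, plus strand), which rose, are shown as above.
HPR1: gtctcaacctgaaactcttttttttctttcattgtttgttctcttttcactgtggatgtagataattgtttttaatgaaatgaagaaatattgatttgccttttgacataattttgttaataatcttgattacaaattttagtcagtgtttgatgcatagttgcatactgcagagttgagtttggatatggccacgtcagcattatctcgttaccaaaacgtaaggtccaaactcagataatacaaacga
GGT1: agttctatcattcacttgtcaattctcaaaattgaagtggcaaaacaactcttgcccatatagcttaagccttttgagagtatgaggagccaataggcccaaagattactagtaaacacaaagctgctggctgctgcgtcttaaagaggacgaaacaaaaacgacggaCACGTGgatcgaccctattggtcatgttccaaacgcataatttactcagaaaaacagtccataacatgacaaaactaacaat
GLDH1: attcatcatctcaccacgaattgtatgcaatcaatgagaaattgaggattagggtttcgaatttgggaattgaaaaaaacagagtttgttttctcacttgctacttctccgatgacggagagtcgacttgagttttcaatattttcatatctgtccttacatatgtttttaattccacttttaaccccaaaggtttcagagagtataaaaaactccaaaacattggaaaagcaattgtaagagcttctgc
GGT1 (AT1G23310) held 1 G-box, 82 bases before the start, and the HPR1 (AT1G68010, chr1:25493193-25496053, plus strand) and GLDH1 (AT2G35370, chr2:14891041-14892298, plus strand) windows held neither motif.

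HPR1 encodes hydroxypyruvate reductase, which makes glycerate in the peroxisome, and had the largest fall of the 34 genes. It was at 33627, 32997 and 33867 in GL, 30686, 29796 and 29900 in HL15, 26209, 24840 and 20692 in HL60, 21764, 23638 and 21507 in R15, and 13820, 9351 and 10592 in R60. Every treated library was below GL, and the R60 libraries were below all others. The HL60, R15 and R60 changes were -0.49 ± 0.14, -0.59 ± 0.14 and -1.59 ± 0.14 (limma adjusted p = 0.0104, 0.00271 and 4.76e-07), and R60 stood at 33.6% of the GL mean. The HL60 call was lost without HL60 replicate 3 (-0.39).

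Glycolate oxidase is encoded by the neighboring genes GOX1 (AT3G14420) and GOX2 (AT3G14415, chr3:4818251-4821013, plus strand), of which GOX2 passed the test from HL60 on and GOX1 at R60. GOX2 was at 21850, 20963 and 21635 in GL, 19212, 18824 and 19043 in HL15, 15864, 16051 and 13690 in HL60, 14848, 16430 and 14939 in R15, and 11349, 8252 and 8901 in R60. It was below GL in every treated library, with HL60, R15 and R60 changes of -0.50 ± 0.12, -0.48 ± 0.12 and -1.19 ± 0.12 (limma adjusted p = 0.00348, 0.00371 and 1.72e-06). GOX1 was at 47745 ± 1212 in GL, 43741 ± 6187 in HL60, 45565 ± 3601 in R15 and 26291 ± 4336 in R60, and was called at R60 (-0.87, limma adjusted p = 0.0002). The log2 ratio of GOX1 to GOX2 was 1.15 in GL against 1.52, 1.56 and 1.47 in HL60, R15 and R60, with no overlap with GL (exact permutation p = 0.1 each, the smallest possible). The genes share 6.63 and 7.59% of their 31-base stretches.

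GGT1, which turns glyoxylate into glycine with glutamate, was at 66763 ± 2133 in GL, 64998 ± 785 in HL15, 48070 ± 5409 in HL60, 50488 ± 2160 in R15 and 28810 ± 2904 in R60. It was lower at HL60 (-0.48), R15 (-0.40) and R60 (-1.22 ± 0.13, limma adjusted p = 3.67e-06). The R15 call was lost without GL replicate 1 (-0.38), GL replicate 3 (-0.40) or R15 replicate 3 (-0.37), and the R15 estimate was 0 under quantile normalization. AGT1 (AT2G13360), which takes its amino group from serine, stayed at 43543 to 43961 on average in HL15, HL60 and R15, against 45796 ± 1673 in GL, and fell to 25237 ± 4415 at R60 (-0.87, limma adjusted p = 0.000134).

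**Figure D5:**
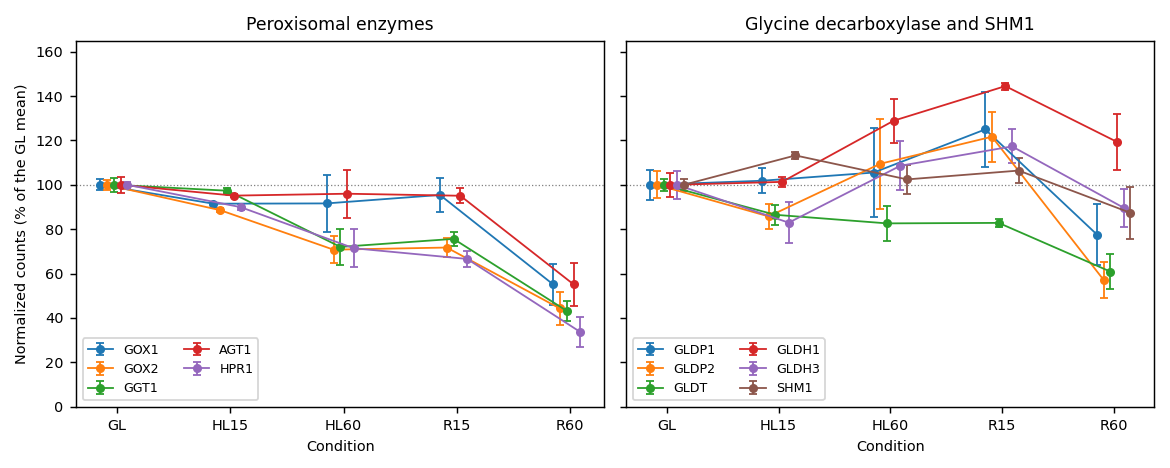
Normalized counts as % of the GL mean by condition, mean ± SD of 3 libraries, for 5 peroxisomal enzymes (left) and for the glycine decarboxylase genes and SHM1 (right). At R60 the peroxisomal genes stand between 33.6% (HPR1) and 55.1% (AGT1), and the mitochondrial genes between 57.1% (GLDP2) and 119.4% (GLDH1).

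Glycine decarboxylase consists of P, T, H and L proteins and works with serine hydroxymethyltransferase in the mitochondrion. GLDH1, for an H protein, was higher than GL in the HL60, R15 and R60 comparisons. It was at 7558, 6948 and 6858 in GL, 7386, 7072 and 7195 in HL15, 8649, 9975 and 8915 in HL60, 10172, 10386 and 10324 in R15, and 9409, 7600 and 8497 in R60. From HL60 on, all libraries were above all GL libraries, and R15 was highest. Its HL60, R15 and R60 rises were 0.36 ± 0.09, 0.53 ± 0.09 and 0.25 ± 0.09 (limma adjusted p = 0.00616, 0.000292 and 0.0399). The R60 call was lost without GL replicate 2 (0.23), GL replicate 3 (0.23), HL15 replicate 2 or 3, R15 replicate 3 or R60 replicate 3 (0.25 each), or R60 replicate 1 (0.18). It was also lost with only the conditions compared or HL15 replicates 2 and 3 averaged (0.25 each), and under upper quartile normalization (0.24). The HL60 estimate was 0.08 and not called under quantile normalization.

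Its paralog GLDH3 (AT1G32470) was not called against GL (6747 ± 419 in GL, 5596 ± 631 in HL15 and 6049 ± 573 in R60), and the log2 ratio of GLDH1 to GLDH3 was higher than in GL by 0.25 to 0.41 in the 4 treatments (exact permutation p = 0.1 each, the smallest possible). The P protein is encoded by GLDP1 (AT4G33010) and GLDP2 (AT2G26080). GLDP1 averaged 98162 ± 6581 in GL, 122718 ± 16507 in R15 and 76169 ± 13488 in R60 (-0.38, interval -0.79 to 0.03, limma adjusted p = 0.126), and was called at R60 only without R60 replicate 1 (-0.51). GLDP2 went from 19419 ± 1194 to 23630 ± 2187 and 11095 ± 1585 (-0.81 at R60, limma adjusted p = 0.000274). GLDT (AT1G11860), for the T protein, fell to 16662 ± 2157 from 27369 ± 776 at R60 (-0.72, limma adjusted p = 0.000134). SHM1, the mitochondrial serine hydroxymethyltransferase, was at 62043 ± 1595 in GL and 54217 ± 7307 at R60, with overlap between the libraries (-0.20, interval -0.50 to 0.09, limma adjusted p = 0.254).

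The plastid steps fell modestly, with 3 of 3 genes lower at R60 (22.1% of all genes) and 0 of 3 called earlier against GL. Scaling to equal totals moved the R60 median of the 14 photorespiratory genes from -0.59 to -0.37. Falls as small as those of the plastid genes thus depend more on the scaling than larger ones. PLGG1 (AT1G32080), which carries glycolate and glycerate across the envelope, averaged 10833 ± 252 in GL, 12502 ± 221 in R15 and 7935 ± 705 in R60 (-0.45, limma adjusted p = 0.000992). PGLP1 (AT5G36700), phosphoglycolate phosphatase, went from 14637 ± 500 to 11054 ± 1284 at R60 (-0.41, limma adjusted p = 0.00326). Its value is uncertain, since 92.8% of its 31-base stretches occur in the copy AT5G36790, which was listed at 226 ± 38 in GL. GLYK (AT1G80380), glycerate kinase, fell by 0.29 at R60 (limma adjusted p = 0.0276), a call lost without any 1 GL library (-0.29 to -0.28), R60 replicate 2 (-0.22) or R60 replicate 3 (-0.26).

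The steps between successive conditions placed most of the fall between R15 and R60. From HL15 to HL60, 4 genes rose (RBCS1B, GLDH3, RPI3 and GLDH1, by 0.34 to 0.76) and 3 fell (GGT1, PRK and GOX2, by -0.44 to -0.33), against 18.3 and 17.4% of all genes. These 7 calls were 3 without HL15 replicate 3, 4 without HL15 replicate 2 and 4 without HL60 replicate 2. The calls of PRK (-0.38 to -0.30) and GOX2 (-0.37 to -0.25) were lost without most single libraries, the exceptions being HL60 replicate 1, R60 replicates 1 and 2, and for GOX2 also R15 replicate 2 and R60 replicate 3. GLDH3 was lost without HL15 replicate 2, HL15 replicate 3 or HL60 replicate 2 (0.32 to 0.36), and GGT1 without HL15 replicate 3 (-0.43) or HL60 replicate 3 (-0.36). From HL60 to R15, 0 of the 34 genes passed in either direction with limma, 0 had an unadjusted p under 0.05, and the smallest adjusted p was 0.21, whereas 11.6% of all genes rose and 11.7% fell. From R15 to R60, 28 genes (82.4%) fell and 0 rose, against 20.2 and 20.8% of all genes, and the estimate was negative for each of the 34. The largest steps were those of FBA1 (-1.23 ± 0.17), CP12-2 (-1.10 ± 0.16), GLDP2 (-1.10 ± 0.14) and HPR1 (-1.01 ± 0.14), and 4 genes fell by 2-fold or more (8.05% of all genes). RBCS1A, RBCS3B, PGK1, CP12-1, CP12-3 and SHM1 did not pass. The calls of GAPB, GLDH1 and TKL1 in this step were lost without R60 replicate 2 (-0.40, -0.20 and -0.35) or R60 replicate 3 (-0.41, -0.28 and -0.32), those of GLDH1 also without any 1 R15 library (-0.29 to -0.27) and of TKL1 without R15 replicate 2 or 3 (-0.37 each).

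Further genes of the pathways were called in both directions. Of 18 other photorespiratory genes, 7 were higher and 1 lower at R15 (22.9% of all genes in each direction), and 1 was higher and 9 lower at R60 (21.4 and 22.1%, median -0.35). CAT2, the peroxisomal catalase that removes the H2O2 made by glycolate oxidase, rose at HL60 (0.88) and R15 (0.84) and fell at R60 (-0.63, limma adjusted p = 0.00998), from 46448 ± 3907 in GL to 86042 ± 12771, 83408 ± 9903 and 30554 ± 7312. GGT2, a further glutamate-glyoxylate aminotransferase gene, was lower at R60 (limma adjusted p = 8.03e-06). Of 5 other Calvin cycle genes, 1 was lower and 1 higher at R60, near the background of 22.1 and 21.4%. The transketolase gene TKL2 rose from 141 ± 3 in GL to 421 ± 53 (1.57 ± 0.15, limma adjusted p = 1.24e-06) where TKL1 fell. cFBP2, for a plastid bisphosphatase-like protein, was lower at every time, most at HL60 (-1.54).

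Of 10 genes that serve the folding and assembly of Rubisco, 6 were higher at HL60 and 8 at R15, against 19.4 and 22.9% of all genes, and 0 were lower at either. At HL15 2 were higher and 0 lower (11.4 and 13.2% of all genes, median of the list 0.01), and at R60 2 were higher and 2 lower (21.4 and 22.1% of all genes). The chaperonin gene CPN60B2 rose by 2.15 at HL60, and the assembly factor gene RBCX1 was highest at R60 (2.39, limma adjusted p = 6.09e-08), at 704 ± 156 against 132 ± 13 in GL. Of 7 cytosolic counterparts of the plastid enzymes, which serve glycolysis and sucrose synthesis, 5 were higher at HL60 (19.4% of all genes), 4 of them by 2-fold or more (7.76% of all genes), with a median of 1.11. At R60 1 was higher and 4 were lower (21.4 and 22.1% of all genes). The cytosolic GAPDH gene GAPC1 rose to 22122 ± 2991 at HL60 from 9440 ± 570 in GL (1.22, limma adjusted p = 1.21e-05), where GAPA-1 and GAPA-2 were lowered, and fell below GL at R60 (-0.53).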

How the data were processed

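Normalized RNA-seq counts of 15 leaf libraries, 3 for each of GL, HL15, HL60, R15 and R60, were analysed by condition as given in the labels. The authors quantified reads with Salmon 0.12 on TAIR cDNA (TAIR10), removed genes with few reads and tested the rest with DESeq2. The deposited signal values are normalized counts. The values look like estimated counts scaled by library size, and also by transcript length where a gene has several transcripts, a step that the study's text does not describe. Raw reads were not recovered, so that no count model was used.

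A gene needed a summed value of at least 10, which removed 1081 genes. The other 20512 were tested on log2(value + 1) in a single model of all libraries (limma 3.58.1, R 4.3.3), without a block and with a variance trend. Adjusted p-values are Benjamini-Hochberg over all genes tested. The pseudocount of 1 lowers the fold changes of low genes such as CP12-3. Ratios within families were compared by two-sided exact permutation tests. Confidence intervals of estimates are at 95%. The procedure was tested on simulated data. Depth was 14403632 to 28104464 estimated reads per library, and the spread between replicates set the precision.

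Members and lists were chosen with earlier results of these data known. Given in every library were the RBCS genes, RCA, the CP12 genes, and for each pathway and treatment the called genes with the largest rise and fall. Other genes were named from the lists when called. The ratios of GAPA to GAPB and of RBCS2B to RBCS1A were chosen after values were seen. Names, transcripts and promoter windows are from RefSeq TAIR10.1, matched by locus tag for 34 of 34 genes. The alternatives were other scalings, pseudocounts of 0.5 and 5, other filters, a replicate block, no variance trend, fits of the compared conditions only, a 2-fold minimum and leaving out each library. Scaling to equal totals and averaging HL15 replicates 2 and 3 were added after seeing the data.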

Additional observations from a re-analysis of the deposited data

How the results depend on the processing

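When single libraries were left out, 20 to 26 of 34 genes were called at R60 and 25 to 31 for R60 against R15. The other counts ranged over 0 to 4 (HL15), 6 to 12 (HL60), 6 to 14 (R15), 3 to 10 (HL60 against HL15) and 0 (R15 against HL60), and the test over the 5 conditions over 23 to 31. The pathway differences ranged from -0.0428 to 0.0014 (HL15), -0.0706 to 0.1496 (HL60), 0.0015 to 0.0608 (R15) and 0.0159 to 0.1067 (R60). The 1 call at HL15 became 4 under upper quartile normalization, a mean of at least 10 or no variance trend, 7 under quantile normalization, 5 under equal totals, 10 with only the conditions compared, and 0 with HL15 replicates 2 and 3 averaged or a 2-fold minimum. Under quantile normalization the calls were 15 at HL60 (main 9), 16 at R15 (main 10) and 1 for R15 against HL60 (main 0), and the pathway differences 0.19, 0.23 and 0.16 at HL60, R15 and R60. With only the conditions compared, 20 genes were called at R15 and 2 for HL60 against HL15 (main 7), and 3 of the latter with HL15 replicates 2 and 3 averaged. With a 2-fold minimum, 0 genes were called at HL60, at R15 and for HL60 against HL15, 8 at R60 and 4 for R60 against R15. Under quantile normalization RBCS2B at R15 was 0.11, RBCS3B at HL60 0.60 and RPI3 at HL60 -0.0318, each with the other sign. The cause was not tested.

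Of 1352 alternative values for the 13 genes given in every library, 1260 stayed on the same side of the threshold. Of the rest, 51 lost the call, 38 gained one and 3 changed sign with a call before or after. Sign changes between uncalled values count among the 1260, such as those of RBCS1A, RBCS1B and RBCS3B at R60 under quantile normalization. No pairing of the libraries by replicate number was seen. The correlation of same-numbered libraries was -0.26 to 0.29, over 0.1 in 6 of 30 pairs. For libraries of different number it was -0.34 to 0.29, over 0.1 in 11 of 60 pairs. Whether same-numbered replicates were handled together was not tested. With a replicate block the calls were 1, 8, 9 and 22 at HL15, HL60, R15 and R60, 5 for HL60 against HL15, 0 for R15 against HL60, 29 for R60 against R15, and 25 over the 5 conditions. The block ended the calls of RBCS2B at R15, RPI3 at HL60 and GLDH1 at R60. Depth limits only CP12-3, at 22.3 to 75.4 normalized counts.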
